A study of Saccharomyces cerevisiae with 27 samples.

Results

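The 59 genes described here encode cytosolic ribosomal proteins (RPs) of the budding yeast Saccharomyces cerevisiae. They comprise 37 genes of the large, 60S subunit (RPL1A to RPL20B) and 22 genes of the small, 40S subunit (RPS0A to RPS13). The genes were picked by their open reading frame (ORF) identifiers from the 6692 ORFs of the deposited expression table. They form 26 pairs of A and B paralogs plus 7 genes without a paralog, among them RPL3 (YOR063W), RPL5 (YPL131W), RPL10 (YLR075W), RPS2 (YGL123W), RPS3 (YNL178W) and RPS13 (YDR064W). The remaining 78 cytosolic RP genes of the table served for comparison.

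The study asked how the transcriptome of yeast responds to small molecules released by calorie-restricted cultures. Cells were BY4741, a haploid MATa laboratory strain carrying his3, leu2, met15 and ura3 mutations, and all cultures grew in synthetic complete medium with 2% glucose, which is the non-restricted (NR) condition. At inoculation, each culture received 2% (vol/vol) of concentrated conditioned medium from calorie-restricted cultures (CRCM), 2% (vol/vol) of concentrated conditioned medium from non-restricted cultures (NRCM), or water. Cells were collected in log phase, at 24 h and at 96 h, with 3 biological replicates for each of the 9 combinations of supplement and time. Messenger RNA was sequenced from the resulting 27 libraries. Whether the times were sampled from the same cultures is not stated, and the fits over times treated the libraries as independent.

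Each ribosome carries a single copy of nearly every RP, and the RP genes of yeast are therefore transcribed in near balance and rank among the most active genes of a growing cell. The factor Rap1 binds most RP promoters and recruits Fhl1 and its coactivator Ifh1, while Sfp1 and the TOR and Sch9 kinases link these promoters to nutrients, and RP transcription falls when glucose runs out. The A and B copies of a pair descend from a whole-genome duplication and encode the same or almost the same protein, but their promoters, introns and untranslated ends have diverged.

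The sequences below show how alike, or how unlike, the copies of a pair can be. They come from RefSeq on assembly R64 (sacCer3), which is the build the reads were mapped to. The first coding bases, with any intron removed, are given for the 2 pairs whose A share changed most with time (RPS9 and RPL9) and for the nearly identical RPS6 pair, with the bases that differ between A and B in capitals. RPS9A lies at chrXVI:404950-406044 (+), RPS9B at chrII:604508-605508 (+), RPL9A at chrVII:227754-228329 (-), RPL9B at chrXIV:499681-500256 (+), RPS6A at chrXVI:377291-378395 (-) and RPS6B at chrII:591712-592774 (-).
RPS9A: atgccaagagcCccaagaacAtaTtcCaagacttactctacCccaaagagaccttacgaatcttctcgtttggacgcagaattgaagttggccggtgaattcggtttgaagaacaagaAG
RPS9B: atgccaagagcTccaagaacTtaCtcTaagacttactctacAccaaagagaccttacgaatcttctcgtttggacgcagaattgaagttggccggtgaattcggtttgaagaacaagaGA
RPL9A: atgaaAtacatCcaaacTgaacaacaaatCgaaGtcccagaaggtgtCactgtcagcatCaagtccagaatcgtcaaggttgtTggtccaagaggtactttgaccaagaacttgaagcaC
RPL9B: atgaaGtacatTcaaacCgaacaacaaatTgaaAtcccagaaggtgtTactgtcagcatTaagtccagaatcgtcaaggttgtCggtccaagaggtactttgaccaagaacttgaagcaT
RPS6A: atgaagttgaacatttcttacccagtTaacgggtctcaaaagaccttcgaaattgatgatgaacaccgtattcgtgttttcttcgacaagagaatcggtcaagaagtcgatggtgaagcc
RPS6B: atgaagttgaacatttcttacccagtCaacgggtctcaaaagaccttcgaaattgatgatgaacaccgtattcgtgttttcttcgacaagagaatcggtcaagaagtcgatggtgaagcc

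Over these 120 bases the RPS9 copies differed at 7 positions, the RPL9 copies at 9 and the RPS6 copies at 1. Over the whole coding sequence, identity between copies ranged from 85.2% in RPS7 and 86.5% in RPL16 to 99.2% in RPS6 and 99.4% in RPL1. RPS9 was at 90.9% and RPL9 at 93.8%.

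Windows of 300 bases upstream of the start codon are shown for the RPS9 pair, whose copies moved in opposite directions with CRCM at 96 h, at chrXVI:404550-404849 (+) for RPS9A and chrII:604108-604407 (+) for RPS9B, with matches to CCNTNCAT, a core of the Rap1 site, in capitals on either strand. The bases next to the start codon lie outside these windows and were not searched.
RPS9A upstream: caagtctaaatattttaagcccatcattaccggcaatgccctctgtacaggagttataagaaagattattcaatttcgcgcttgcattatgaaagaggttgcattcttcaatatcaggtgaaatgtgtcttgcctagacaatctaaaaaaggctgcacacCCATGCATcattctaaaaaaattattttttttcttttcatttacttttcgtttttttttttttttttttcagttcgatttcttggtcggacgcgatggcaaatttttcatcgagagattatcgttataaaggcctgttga
RPS9B upstream: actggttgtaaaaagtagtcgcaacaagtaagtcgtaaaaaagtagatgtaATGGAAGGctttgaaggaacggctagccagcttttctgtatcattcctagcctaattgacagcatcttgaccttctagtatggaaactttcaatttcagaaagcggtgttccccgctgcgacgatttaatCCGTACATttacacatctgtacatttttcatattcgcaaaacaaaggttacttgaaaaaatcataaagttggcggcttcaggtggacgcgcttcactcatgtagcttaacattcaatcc

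RPS9A held 1 match and RPS9B 2 in its window. Among the 59 genes, 24 (40.68%) had at least 1 match on either strand, against 763 of 6001 genes with such a window (12.71%). A match is a run of letters and not evidence of binding.

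Library quality was checked before the RP genes were read. In the 20 libraries whose whole reads could be recovered from the deposited values, totals ranged from 7396943 to 41288605 reads. MET15 had no read in any library, and LEU2 and URA3 were at or below 0.174 and 0.177 CPM (reads of a gene scaled to a common library total) in 26 libraries. HIS3, the remaining marker, had between 28.3 and 58.4 CPM over the 27 libraries. CRCM 96 h replicate 3 stood apart, with LEU2 at 68.1 CPM and URA3 at 11.7 CPM, as well as ANB1, a gene expressed without oxygen, at 118.6 CPM. Its part in the RP values was not tested, and results that rest on it are given with and without it. At 24 h the libraries numbered 1 had more RP reads than the other cultures of their group. Nothing in the labels says how the cultures of a group were separated, so p-values measure the spread between these samples only.

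Ribosomal protein reads made up a large share of the transcriptome in log phase and a small one afterwards. Summed over the 59 genes, they took 9.51%, 9.55% and 8.66% of the library with CRCM in log phase, 9.95%, 10.04% and 8.26% with NRCM, and 8.33%, 9.95% and 9.35% with water. At 24 h the sums were 1.10%, 0.595% and 0.495% with CRCM, 1.31%, 0.621% and 0.601% with NRCM, and 0.975%, 0.769% and 0.766% with water. At 96 h they were 1.58%, 1.72% and 2.27% with CRCM, 1.59%, 1.42% and 1.501% with NRCM, and 1.63%, 1.73% and 1.74% with water. On this scale every library at 24 h lay below every library in log phase and at 96 h, whereas with TMM factors over all 27 libraries NRCM 24 h replicate 1 was at 1.48%, above all NRCM and water libraries at 96 h. As shares of the library total, the 3 supplements overlapped at each time with the exception that NRCM was below water at 96 h. The 96 h mean was 1.86% ± 0.367 with CRCM, 1.504% ± 0.0835 with NRCM and 1.70% ± 0.0644 with water (SD, n = 3). A share of the library cannot tell less RP mRNA per cell from more of the other mRNAs.

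**Figure D1:**
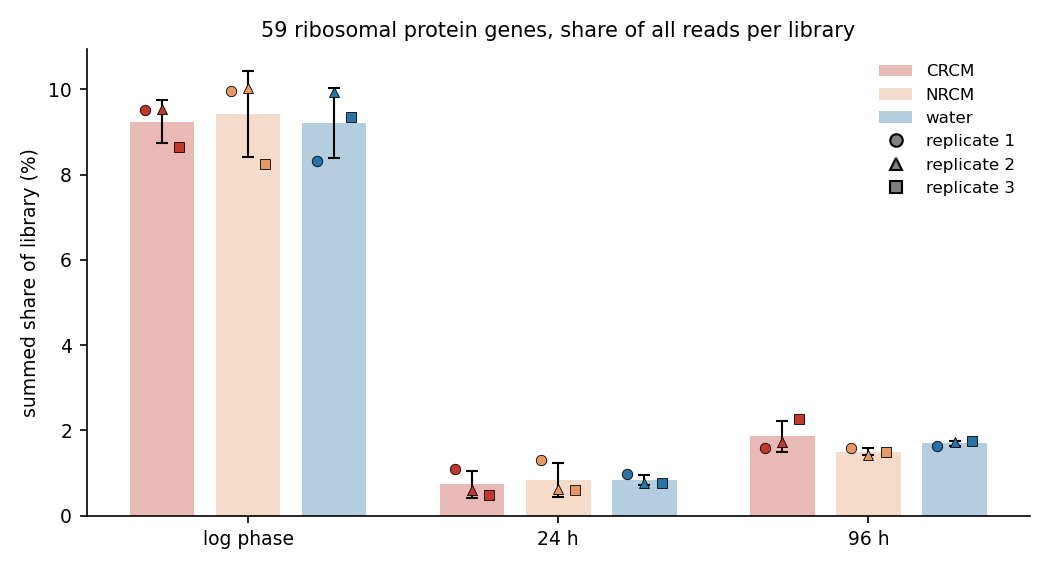
Summed share of all reads taken by the 59 ribosomal protein genes (percent of the library total) for CRCM, NRCM and water in log phase, at 24 h and at 96 h, where bars are means of 3 libraries, error bars are the SD and points are the libraries. All libraries sit between 8.26% and 10.04% in log phase and between 0.495% and 1.31% at 24 h.

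Within the 59 genes, levels per kilobase of coding sequence differed widely even in log phase. With water in log phase, RPL10, a late-joining 60S protein, reached 5547 CPM per kb and RPS2 5384 CPM per kb. The lowest levels per kb were those of RPL15B (176 CPM per kb), RPS9A (307 CPM per kb) and RPL18B (570 CPM per kb), each the minor copy of a pair. RPL10 and RPS2 have no paralog, so their protein comes from a single gene.

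The first comparison addressed what happened to RP transcripts as cells left log phase. All 59 genes fell by 24 h whichever supplement was present. The median change was -4.29 on the log2 scale with CRCM, -3.80 with NRCM and -3.39 with water, which corresponds to levels 19.5-fold, 13.9-fold and 10.5-fold lower. RPL15B, RPL4A and RPL4B fell least, and RPS9B was among the genes that fell most in every supplement.

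Each of the 59 genes was called lower (limma, Benjamini-Hochberg adjusted p under 0.05), and in each supplement none of its 24 h libraries overlapped the log-phase libraries. Over all genes tested, 36.5% were called lower with CRCM, 39.5% with NRCM and 39.2% with water, and groups that did not overlap in that direction made up 39.6%, 37.7% and 38.7%. Called higher were 39.7% of all genes with CRCM, 38.9% with NRCM and 37.1% with water.

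RPS9B (YBR189W), a 40S protein near the entry of the mRNA channel, had 2629, 2761 and 2407 scaled CPM (CPM after TMM normalization of the libraries compared) in log phase with CRCM and 166, 57.2 and 35.1 at 24 h. With NRCM its scaled CPM were 2717, 2544 and 1950.5 in log phase and 199.9, 59.6 and 69.6 at 24 h. With water they were 2080.5, 3049 and 2521 in log phase and 183, 93.8 and 95.4 at 24 h. No 24 h library came near a log-phase one, and the first culture was the highest in each 24 h group. Its log2 change was -5.20 (SE 0.41, adjusted p = 2.3e-11) with CRCM, -4.65 with NRCM and -4.40 with water.

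RPL15B (YMR121C) encodes a core 60S protein and is the minor copy of its pair. It had 119.96, 118 and 129 scaled CPM in log phase and 44.9, 46.5 and 44.3 at 24 h with CRCM. With NRCM the values were 125, 136 and 137 in log phase and 53.2, 35.4 and 34.0 at 24 h, and with water 111, 136 and 104 in log phase and 42.7, 37.9 and 36.6 at 24 h. The groups did not overlap, but the fall was shallow, at -1.42 (SE 0.13, adjusted p = 8.11e-10) with CRCM, -1.71 with NRCM and -1.55 with water.

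RPL4A (YBR031W) and RPL4B (YDR012W) encode a 60S protein that lines the peptide exit tunnel and is escorted by its own chaperone, Acl4. RPL4A changed by -2.45 with CRCM, -1.93 with NRCM and -1.64 with water, and RPL4B by -2.40, -1.92 and -1.62. Among the genes without a paralog, RPL10 fell least, with log2 changes of -3.31 with CRCM, -3.34 with NRCM and -3.12 with water. RPL3, which reaches to the peptidyl transferase centre, changed by -4.31, -3.63 and -3.47, and RPL5, which carries the 5S rRNA, by -4.30, -3.80 and -3.36 in the same order of supplements. RPS13 changed by -4.25, -3.64 and -3.25, RPS2 by -4.18, -3.68 and -3.37, and RPS3 by -3.97, -3.67 and -3.66. The other genes that completed the strongest falls were RPS7A (-5.02) and RPS1B (-4.95) with CRCM, RPL9A (-4.51) and RPL8B (-4.48) with NRCM, and RPL9A (-4.63) and RPL13A (-4.05) with water.

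**Figure D2:**
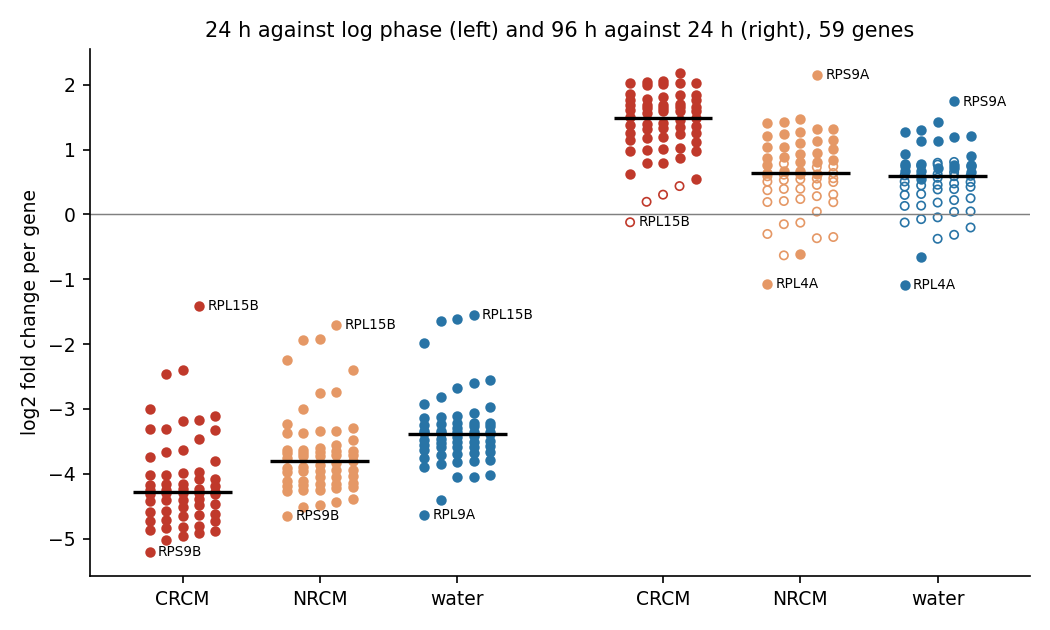
Log2 fold change of each of the 59 genes for 24 h against log phase and for 96 h against 24 h, in CRCM, NRCM and water, with 1 point per gene, filled where the gene passed the test, a line at the median and genes at the ends named. All points are below 0 at 24 h, with medians of -4.29, -3.80 and -3.39, and most are above 0 at 96 h against 24 h, with medians of 1.48, 0.64 and 0.59.

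With TMM factors and all libraries, the rise between 24 h and 96 h was called in most members with CRCM and in fewer with NRCM and water. This contrast depended on the scaling and on single 24 h libraries, as given below. With CRCM, 55 of the 59 genes rose and none fell, with a median log2 change of 1.48, or 2.79-fold. With NRCM 28 rose and 2 fell (median 0.64, 1.56-fold), and with water 22 rose and 2 fell (median 0.59, 1.51-fold). The 2 genes that fell were RPL4A and RPL4B in both cases, near-identical copies whose calls are not independent. Over all genes tested, 22.4% were called higher and 24.8% lower with CRCM, 28.8% and 28.2% with NRCM, and 27.1% and 26.5% with water. Libraries at 96 h and 24 h did not overlap in 50 members with CRCM, all higher, against 29.1% of all genes. The same held for 15 members higher and 4 lower with NRCM, where the background was 32.2% and 31.9%, and for 41 higher and 4 lower with water, where it was 38.2% and 34.2%.

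RPS9A (YPL081W) rose most with NRCM and with water. It had 30.2, 18.6 and 15.6 scaled CPM at 24 h and 74.2, 66.0 and 65.8 at 96 h with CRCM. With NRCM it had 24.0, 23.7 and 25.3 at 24 h and 110.4, 108 and 115 at 96 h, and with water 35.7, 24.3 and 30.6 at 24 h and 100.07, 102 and 105 at 96 h. At 96 h the NRCM and water libraries were all above the CRCM libraries. The log2 change was 2.15 (SE 0.18, adjusted p = 9.31e-10) with NRCM and 1.74 (SE 0.18, adjusted p = 2.1e-08) with water.

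RPL4A went the other way in NRCM and water. With CRCM it had 576, 407 and 407 scaled CPM at 24 h and 454, 525 and 599 at 96 h, which overlapped. With NRCM it had 936, 653 and 654 at 24 h and 379, 339 and 335 at 96 h, and with water 725, 688 and 657 at 24 h and 333, 291 and 347 at 96 h. The log2 change was 0.19 (SE 0.18, adjusted p = 0.407) with CRCM, -1.07 (adjusted p = 3.37e-05) with NRCM and -1.09 (adjusted p = 2.79e-05) with water. RPL4B changed by -0.61 with NRCM and -0.65 with water. Without scaling factors the value for water became 0.03, a reversed sign.

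The other genes not called with CRCM were RPL15B (-0.12), RPL18B (0.30) and RPL9A (0.44). Other large rises were those of RPL8A (2.06) and RPS7A (2.04) with CRCM, RPL6A (1.43) with NRCM and RPL17A (1.29), which lines the exit tunnel, with water. The lowest values that did not pass the test were -0.63 for RPL9A with NRCM and -0.38 for RPL15A with water. All 7 genes without a paralog rose with CRCM, among them by 0.79 for RPS2, 0.98 for RPL10, 1.03 for RPS3, 1.35 for RPL3, 1.41 for RPL5, and 1.56 for RPS13. Without CRCM 96 h replicate 3, RPS2 did not pass (0.49, adjusted p = 0.19). With NRCM only RPL10 (0.67) of the 7 passed the test, and with water none did, with changes such as -0.31 for RPS2 and 0.45 for RPS13.

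Without scaling factors the median of all genes shifted by 0.51 with NRCM and 0.71 with water, and 49 members were higher and 1 lower with NRCM, and 54 higher and 1 lower with water. With NRCM, 48 rose without 24 h replicate 1, where 30.1% of all genes did, and 14 without 24 h replicate 2 or 3. With water, 12 rose without 24 h replicate 2, and 13 without 24 h replicate 3 or 96 h replicate 2 or 3. With CRCM, 52 rose without 96 h replicate 3, where 19.8% of all genes did.

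In log phase no member was called with CRCM against water, NRCM against water or CRCM against NRCM, where the median log2 differences were 0.09, 0.16 and -0.06. The all-gene background was 0% in both directions for CRCM against water and for CRCM against NRCM, and 0% higher and 0.0154% lower for NRCM against water. At an unadjusted p under 0.05, limma gave 4 members higher with CRCM than with water, 9 higher and 1 lower with NRCM than with water, and 1 higher with CRCM than with NRCM. edgeR and DESeq2 on the recovered reads also called no member in log phase, and neither did the fit of CRCM against NRCM with the replicate number as a block. On simulated data the log-phase test recovered 68% of halved and 76% of doubled genes, which are larger changes than these medians. Recovery of smaller changes is not given here. RPS9A had 187, 173 and 146 CPM with CRCM, against 107, 134 and 95.6 CPM with NRCM, and did not pass. Groups did not overlap in 6 members higher and 0 lower for CRCM against water (all genes 4.53% and 3.89%). The counts were 9 and 1 for NRCM against water (4.97% and 4.98%) and 1 and 5 for CRCM against NRCM (3.42% and 2.96%).

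At 24 h, 8 of the 59 genes passed the test as lower with CRCM relative to water and none as higher. These were RPL16B, RPS7A, RPL2B, RPL9B, RPL1B, RPL1A, RPL4A and RPL4B, 7 of them 60S genes. The RPL1 copies share 81.0% and the RPL4 copies 72.7% of their 50-base windows, so the calls of their copies are not independent. The median difference over the 59 genes was -0.72 on the log2 scale. Over all genes, 24.2% were called lower and 27.3% higher, so the share of members called lower was below the background. At an unadjusted p under 0.05, 18 members were lower. The groups did not overlap in 1 member higher and 9 lower, against 36.1% and 32.2% of all genes.

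RPL16B (YNL069C), a 60S gene, had 133, 55.3 and 41.1 scaled CPM with CRCM at 24 h, against 248, 195 and 244 with water. Every CRCM library was below every water library, and the difference was -1.74 (SE 0.39, adjusted p = 0.0045). With NRCM it had 272, 145 and 154 scaled CPM.

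RPS7A (YOR096W), a 40S gene, had 89.3, 36.4 and 24.6 scaled CPM with CRCM and 146, 88.4 and 113 with water. The highest CRCM library lay just above the lowest water library, and the difference was -1.37 (SE 0.51, adjusted p = 0.046). RPL2B, whose protein sits close to the peptidyl transferase centre, differed by -1.14 (SE 0.40, adjusted p = 0.039) and RPL9B by -1.13 (SE 0.19, adjusted p = 0.0011). RPL1A and RPL1B, which form the stalk that guides the leaving tRNA, differed by -0.68 and -0.81, and RPL4A and RPL4B by -0.61 and -0.56.

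At the other end, RPL15B had 40.5, 42.6 and 40.9 scaled CPM with CRCM and 39.3, 34.7 and 34.1 with water. These groups did not overlap, yet the difference of 0.19 (SE 0.15, adjusted p = 0.31) did not pass the test. RPL18B (0.17) and RPL9A (0.03) came next. None of the 7 genes without a paralog passed, with values such as -0.84 for RPL3, -0.66 for RPS2, -0.58 for RPS13, -0.55 for RPL5, -0.37 for RPS3 and -0.28 for RPL10.

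CRCM replicate 1 was the highest CRCM library for RPL16B and RPS7A, and without it 44 members were lower and none higher. Of all genes, 22.4% were then lower and 24.1% higher. Without CRCM replicate 2 or CRCM replicate 3 the count was 4 lower. Without water replicate 1 it was 5, where 20.1% of all genes were lower. With the 24 h libraries numbered 1 left out of every group, 54 members were lower and 1, RPL15B, was higher, with a median of -0.94 and all-gene backgrounds of 26.4% lower and 32.5% higher. Without scaling factors the median of all genes shifted by 0.42, and 2 members were higher and 2 lower.

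For NRCM against water at 24 h no member was called, with a median of -0.21, against 6.36% of all genes called lower and 6.9% higher, and limma gave no member at an unadjusted p under 0.05. The lowest values were those of RPS7A (-0.64), RPS1A (-0.53) and RPL13B (-0.49), and the highest those of RPL18B (0.40), RPL8B (0.14) and RPL16A (0.13). The 7 genes without a paralog ranged from -0.23 for RPL10 to 0.07 for RPL5. Without NRCM replicate 1, 3 members were lower, against 17% of all genes. With all 24 h libraries numbered 1 left out 31 were lower, where the background was 15% lower.

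CRCM against NRCM at 24 h shares the CRCM libraries with CRCM against water. RPL16B (-1.43, SE 0.39, adjusted p = 0.015), RPL1B (-0.74), RPL9B (-0.72), RPL4A (-0.70), RPL4B (-0.65) and RPL1A (-0.57) were lower, and none was higher. The median was -0.57, and 19.8% of all genes were called lower and 22.4% higher. RPS0A (-0.91) and RPL2B (-0.89) had the next lowest values, and RPL15B (0.16), RPL19B (0.07) and RPL9A (-0.04) the highest. The groups did not overlap in 6 members, all lower with CRCM, against 28.6% of all genes higher and 25.2% lower. Of the genes without a paralog, RPL3 had a value of -0.70 and RPL10 of -0.06, and none of the 7 passed. Deviations of same-numbered cultures from their group means correlated at 0.34, 0.23 and 0.23, but differently numbered cultures reached 0.36. Pairing by number is therefore not established. With the replicate number as a block 27 members were lower, against 20.3% of all genes. Without CRCM replicate 1, 26 were lower, against 16.8% of all genes, and without CRCM replicate 2 or 3, 2 were. Without the 24 h libraries numbered 1, 42 were lower and 1 higher, against 21.6% and 25.8% of all genes. Without scaling factors the median of all genes shifted by 0.34 and 1 member was higher and 1 lower.

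**Figure D3:**
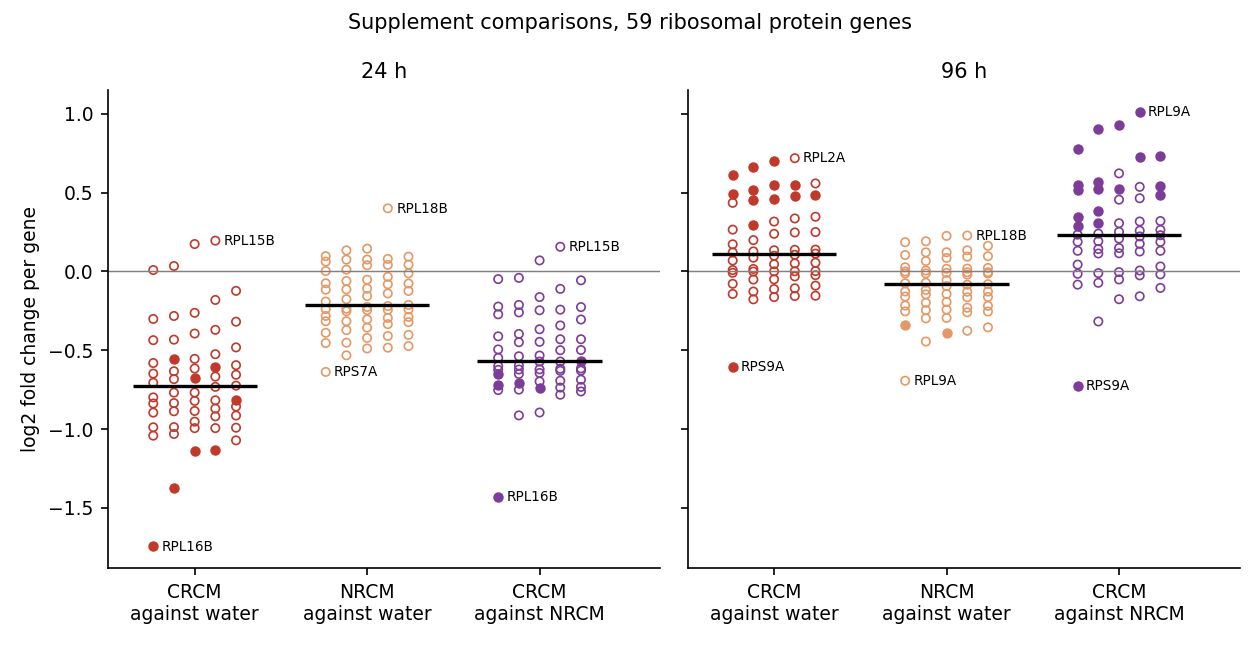
Log2 fold change of each of the 59 genes for CRCM against water, NRCM against water and CRCM against NRCM at 24 h and at 96 h, with 1 point per gene, filled where the gene passed the test, a line at the median and the lowest and highest gene named. The points of CRCM against water have a median of -0.72 at 24 h and 0.11 at 96 h.

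At 96 h, 12 members were higher and 1 was lower with CRCM against water, with a median log2 difference of 0.11. In 1 fit over all 27 libraries only 3 passed, the near-identical RPL4A and RPL4B as higher and RPS9A as lower. The higher genes included RPL4B, RPL4A, RPL3, RPS9B, RPL8A, RPS13, RPL14B, RPL15A, RPS0B, RPS0A and RPL5, and the lower one was RPS9A. Over all genes 19.6% were called higher and 21.8% lower, so that 12 of 59 lay close to the background. The groups did not overlap in 18 members higher and 3 lower, against 25% and 28.5% of all genes.

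RPL4B had 628, 662 and 659 scaled CPM with CRCM at 96 h, against 429, 340.05 and 437 with water. Every CRCM library was above every water library, and the difference was 0.70 (SE 0.12, adjusted p = 0.00093). RPL4A differed by 0.66 (SE 0.12, adjusted p = 0.0017). RPL3 had 707, 834 and 1111 scaled CPM with CRCM and 584, 533 and 586 with water, again without overlap, and differed by 0.61 (SE 0.16, adjusted p = 0.012). RPL2A had the largest value, 0.72, but did not pass the test (adjusted p = 0.053), and was at 0.32 without CRCM replicate 3 (adjusted p = 0.049).

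RPS9A was the exception. It had 92.2, 82.2 and 79.3 scaled CPM with CRCM, against 139, 137 and 145 with NRCM and 125, 129.9 and 131 with water. All CRCM libraries were below all others, and the difference was -0.61 (SE 0.09, adjusted p = 0.00044) from water and -0.73 (SE 0.09, adjusted p = 0.00021) from NRCM. Its paralog RPS9B had 209, 248 and 385 scaled CPM with CRCM and 169, 199 and 189.6 with water, a difference of 0.55 (SE 0.19, adjusted p = 0.039). The next lowest values against water were those of RPL17A (-0.18) and RPL12B (-0.16), which did not pass. Of the genes without a paralog RPL3, RPS13 (0.51) and RPL5 (0.45) were higher, and RPS2 (0.43), RPL10 (0.25) and RPS3 (0.25) did not pass.

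CRCM 96 h replicate 3, the library with LEU2 and URA3 reads, was the highest CRCM library for RPL3 and RPS9B and the lowest for RPS9A. Without it 11 members were higher and 6 lower, with a median of -0.05, against 22.8% and 24.2% of all genes. RPS9A differed then by -0.56, RPL4B by 0.69, RPL4A by 0.58 and RPL3 by 0.44, and all remained called, as did RPS9B at 0.30 (adjusted p = 0.048). The other 5 lower genes included RPL18B, RPS7A, RPS10A and RPL12B. RPL15A and RPL5 lost their call and RPL2A gained one. Without water replicate 1 or 2, 7 members were higher and 1 was lower. Without scaling factors, which shifted the median of all genes by -0.12, the counts were 8 higher and 2 lower.

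For NRCM against water at 96 h, RPL7B (-0.39, SE 0.09, adjusted p = 0.012) and RPL20B (-0.34, SE 0.10, adjusted p = 0.03) were lower and none was higher, with a median of -0.08 and backgrounds of 12% lower and 12.5% higher. RPL7B had 107, 100.7 and 104 scaled CPM with NRCM and 131, 137 and 141 with water, without overlap. RPL9A (-0.69) and RPL15A (-0.44) had lower values still but did not pass, and RPL18B (0.23), RPL14B (0.22) and RPL8B (0.19) had the highest. The 7 genes without a paralog lay between -0.22 for RPS13 and 0.02 for RPL10. The groups did not overlap in 4 members higher and 21 lower, against 27.5% and 26.7% of all genes. Leaving out any single NRCM or water library at 96 h left 1 member lower.

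CRCM against NRCM at 96 h gave 17 members higher and 1, RPS9A, lower, with a median of 0.23 and backgrounds of 17.3% higher and 19.7% lower. RPL9A (1.01, SE 0.32, adjusted p = 0.03), RPL15A (0.93, SE 0.16, adjusted p = 0.0014) and RPS9B (0.90, SE 0.19, adjusted p = 0.0043) had the largest differences. RPL15A had 268, 352 and 446 scaled CPM with CRCM and 199.8, 176 and 172 with NRCM, without overlap. RPL9A had 65.0, 109.6 and 216 with CRCM and 61.3, 54.3 and 55.3 with NRCM, a wide spread within CRCM. RPL3 (0.78), RPS13 (0.73) and RPL5 (0.52) were the genes without a paralog that were higher. RPL18B (-0.32) and RPL15B (-0.18) had low values that did not pass. The groups did not overlap in 25 members higher and 1 lower, against 22.8% and 24.7% of all genes. Without CRCM replicate 3, 15 members were higher and 4, RPS9A, RPL18B (-0.66), RPL12B (-0.27) and RPL15B (-0.26), were lower, while RPL9A was at 0.56. Of all genes, 20.3% were then higher and 22.2% lower.

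An interaction term compared the CRCM effect at 96 h with that at 24 h. For 18 of the 59 genes the difference between CRCM and water was higher at 96 h than at 24 h, and for none was it lower, with a median of 0.89. Of all genes, 15.5% were called higher and 14.4% lower. RPL16B (1.88, SE 0.39, adjusted p = 0.00097), RPL2A (1.73, SE 0.57, adjusted p = 0.024) and RPL2B (1.71, SE 0.47, adjusted p = 0.0077) changed most, followed by RPL3 (1.47). RPS13 and RPS2 (both 1.11) were the other genes without a paralog that passed. The lowest values were -0.24 for RPL18B, -0.17 for RPL15B and -0.06 for RPS9A. The count was 46 without CRCM 24 h replicate 1, 10 without CRCM 24 h replicate 2, 7 without CRCM 24 h replicate 3, 9 without water 24 h replicate 1, 11 without water 96 h replicate 2 and 13 without CRCM 96 h replicate 3. RPL2A (1.32), RPS13 (0.91) and RPS2 (0.80) did not pass without that last library, while RPL16B (1.67), RPL2B (1.36) and RPL3 (1.28) did. The count was 47 without the 24 h libraries numbered 1, where 14.9% of all genes were higher. Of all genes, 15.3% were higher without CRCM 24 h replicate 1 and 13.1% without water 24 h replicate 1. Without CRCM 96 h replicate 3, 14.6% of all genes were. Without scaling factors the median of all genes shifted by -0.55 and 4 members were higher and 3 lower. For NRCM no member passed, with or without adjustment at 0.05, against backgrounds of 1.02% higher and 0.36% lower.

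The second question was how the A and B copies of a pair shared the output. The A share is the percentage of a pair's reads assigned to the A copy. With water in log phase it was highest in RPL15 (95.9%), RPL18 (83.4%), RPL9 (73.6%) and RPS7 (73.6%), and lowest in RPS9 (7.30%), RPL8 (29.1%) and RPL16 (35.2%). In the 8 pairs that shared at least 40% of their 50-base windows the A share lay between 48.1% and 66.4%, and in the other 18 pairs between 7.30% and 95.9%. Under the aligner's default settings, reads that match both copies equally are placed at random on either. If such reads were counted, this would draw the shares of near-identical pairs toward equality. The counting step is not given, and whether and how far this happened was not tested.

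**Figure D4:**
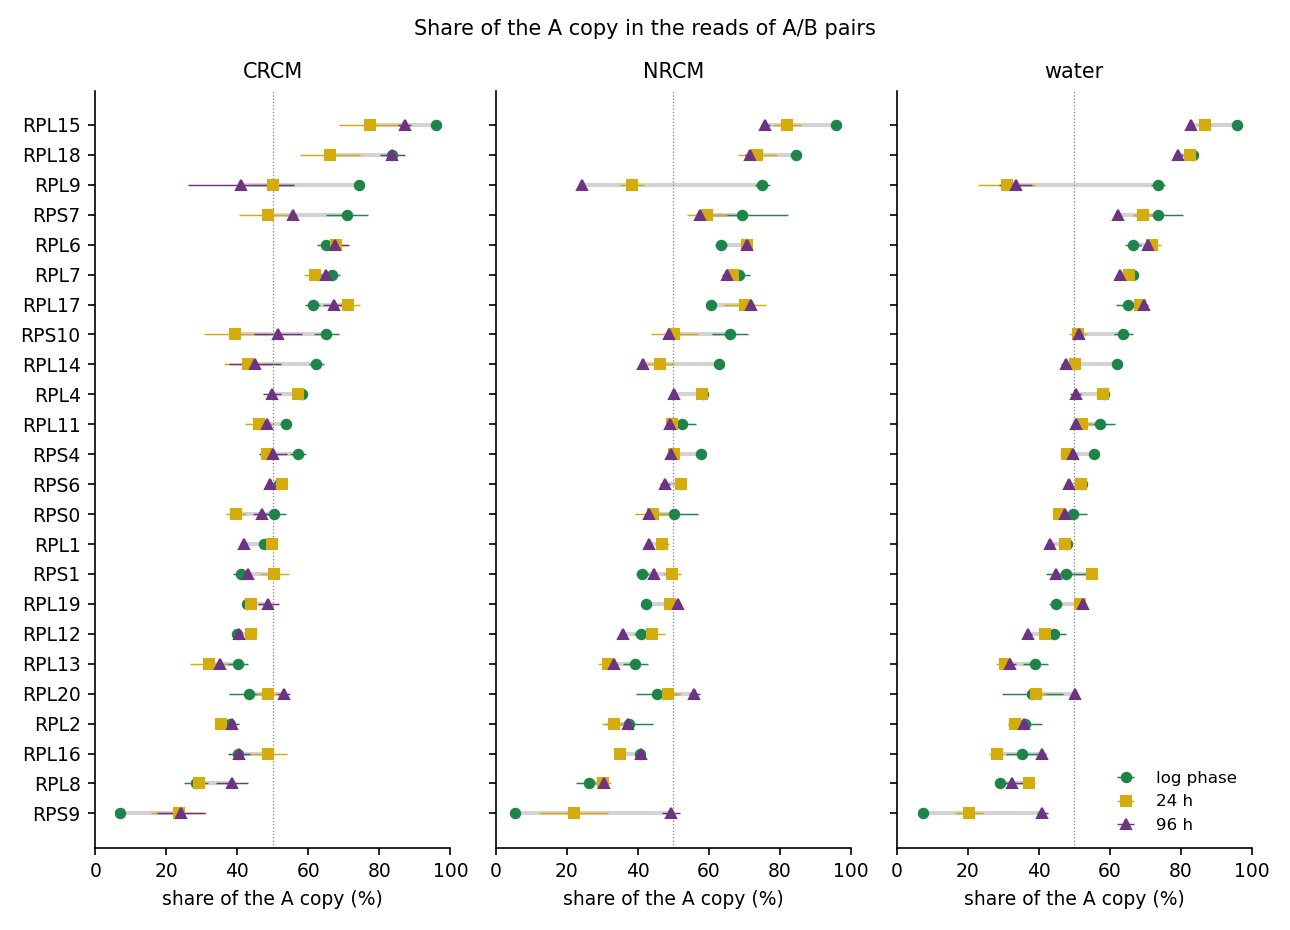
A share (percent of a pair's reads on the A copy) of the paralog pairs shown for CRCM, NRCM and water, where markers are the means of 3 libraries of each time and thin lines the SD. RPL15 and RPS9 lie at opposite ends in log phase, at 95.9% and 7.30% with water.

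Shares moved in many pairs as cells left log phase. Between log phase and 24 h the ratio of A to B changed in 18 of the 26 pairs with CRCM, 15 with NRCM and 14 with water, against 77%, 65.6% and 54.1% of all 61 paralog pairs tested. These 61 are the pairs whose names differ only in a last letter A or B. They include the 26 and, by this rule, every such pair of the other RP genes. Their shares are therefore neither a rate for duplicated genes in general nor a background separate from RP genes. In 10 pairs the change had the same direction in all 3 supplements. Among them, the A share rose in RPS1 and RPS9 and fell in RPL9, RPL13, RPL14, RPL15, RPS4 and RPS10. The minor copy of log phase fell less than the major one in 18 of 26 pairs with CRCM, 17 with NRCM and 16 with water. The minor copy was set from the log-phase water libraries, which are also the baseline of the change with water. That choice favours a smaller fall of the minor copy, and its part was not tested. In pairs near equality, such as RPS0 (minor copy at 49.6%), the label is uncertain.

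The RPS9 share rose at both steps in NRCM and water. In log phase the A share was 7.50%, 6.70% and 6.95% with CRCM, 4.82%, 5.79% and 5.33% with NRCM, and 7.21%, 6.18% and 8.504% with water. At 24 h it was 15.4%, 24.5% and 30.7% with CRCM, 10.7%, 28.4% and 26.6% with NRCM, and 16.3%, 20.5% and 24.3% with water. At 96 h it was 30.6%, 24.9% and 17.1% with CRCM, 46.5%, 51.5% and 49.6% with NRCM, and 42.7%, 39.4% and 40.9% with water. The 24 h libraries lay above all log-phase libraries, and at 96 h CRCM lay below water and water below NRCM without overlap. The log2 ratio of A to B changed by 2.00 with CRCM, 2.24 with NRCM and 1.73 with water between log phase and 24 h, and by 1.86 with NRCM and 1.42 with water between 24 h and 96 h.

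RPL9 moved the opposite way. In log phase its A share lay between 72.3% and 76.4% in all 9 libraries. At 24 h it was 57.0%, 46.8% and 46.1% with CRCM, 41.8%, 35.2% and 37.9% with NRCM, and 39.9%, 29.1% and 24.0% with water. At 96 h it was 26.7%, 40.2% and 56.6% with CRCM, 24.3%, 24.7% and 23.8% with NRCM, and 29.2%, 38.4% and 33.0% with water. The 24 h groups did not overlap between CRCM and either other supplement, while CRCM at 96 h lay above NRCM and spanned the values of water. The log2 ratio changed by -1.52 with CRCM, -2.27 with NRCM and -2.65 with water between log phase and 24 h, and the difference between CRCM and water at 24 h was 1.16.

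RPL15 had the largest change of the log2 ratio between log phase and 24 h with CRCM among the 26 pairs. Its A share was between 94.4% and 96.5% in log phase. At 24 h it was 86.9%, 74.97% and 70.0% with CRCM, 86.6%, 79.7% and 79.9% with NRCM, and 88.5%, 84.7% and 87.0% with water. At 96 h it was 85.1%, 87.7% and 88.6% with CRCM, 76.8%, 74.5% and 76.4% with NRCM, and 82.4%, 84.0% and 82.8% with water, with no overlap between supplements. The log2 ratio changed by -2.74 with CRCM, -2.34 with NRCM and -1.87 with water between log phase and 24 h, and RPS10 was among the largest changes with CRCM (-1.52).

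**Figure D5:**
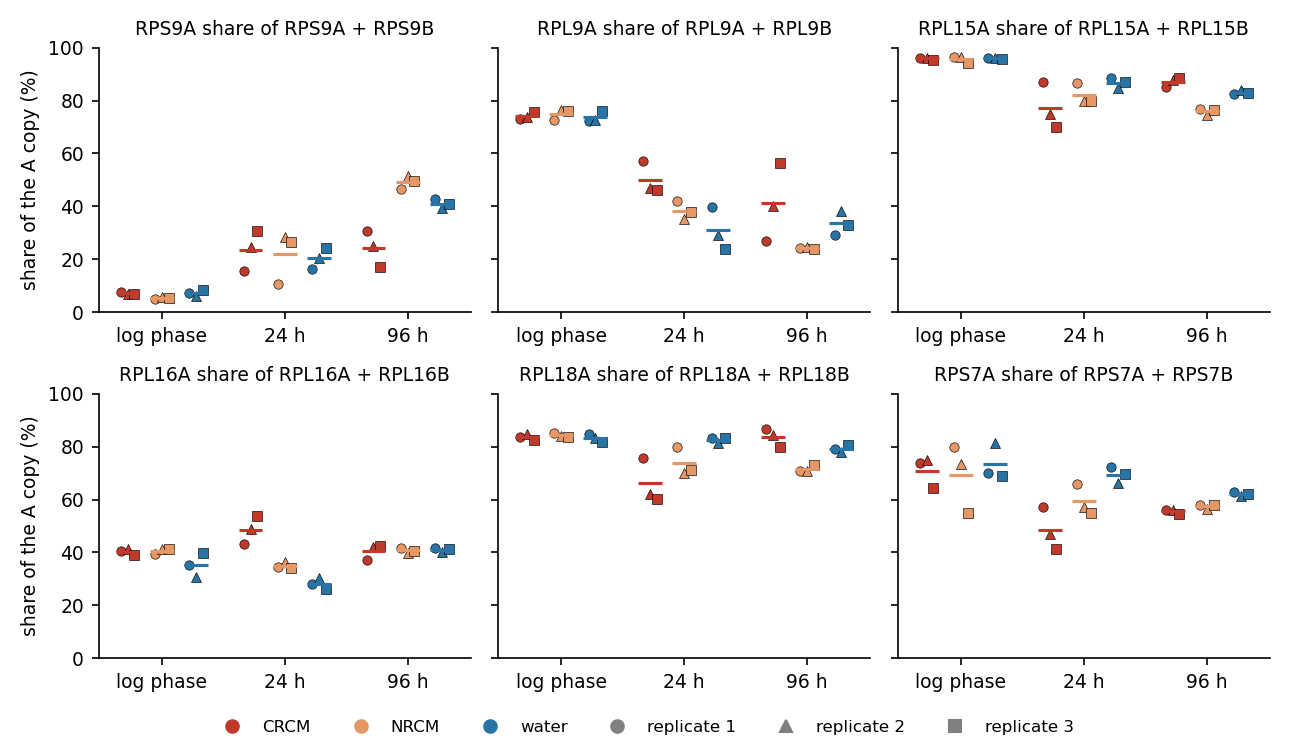
A share (percent) in each library for the RPS9, RPL9, RPL15, RPL16, RPL18 and RPS7 pairs with CRCM, NRCM and water in log phase, at 24 h and at 96 h, where points are libraries and lines their mean. RPS9 reaches 46.5% to 51.5% with NRCM and 17.1% to 30.6% with CRCM at 96 h.

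Between 24 h and 96 h the ratio changed in 12 of the 26 pairs with CRCM, 7 with NRCM and 9 with water, where 50.8%, 24.6% and 34.4% of the 61 pairs did. In all 3 supplements the A share fell in RPL1, RPL4 and RPS6. RPL1, RPL4 and RPS6 are among the near-identical pairs. Otherwise RPL18 changed by 1.39 and RPL15 by 0.92 with CRCM, RPL9 by -0.94 with NRCM, and RPL16 by 0.82 with water. Without CRCM 24 h replicate 3 the count for CRCM was 7.

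At 24 h CRCM and water differed in 7 pairs, against 27.9% of the 61. The A share was higher with CRCM in RPL16, RPL9 and RPL20 and lower in RPS7, RPL18, RPL8 and RPL19. RPL16 had an A share of 43.3%, 48.8% and 54.0% with CRCM, against 34.5%, 36.3% and 34.1% with NRCM and 28.2%, 30.4% and 26.1% with water. The 3 groups did not overlap, and the log2 ratio with CRCM was 1.26 higher than with water (SE 0.16, adjusted p = 0.0019). RPS7 had 57.4%, 47.1% and 41.4% with CRCM and 72.3%, 66.4% and 69.6% with water, a difference of -1.25 (SE 0.25, adjusted p = 0.0088). RPL18 had 75.9%, 62.1% and 60.3% with CRCM and 83.4%, 81.3% and 83.2% with water, a difference of -1.24 (SE 0.30, adjusted p = 0.015). Both pairs were separate between the groups. The count was 11 without CRCM 24 h replicate 1, 4 without water 24 h replicate 3, and 13 without the libraries numbered 1.

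No pair was called for NRCM against water at 24 h (background 0%), and the largest values were RPL18 (-0.73), RPS7 (-0.62) and RPL20 (0.53). For CRCM against NRCM only RPL16 passed (0.81, SE 0.16, adjusted p = 0.022), against 4.92% of the 61, and 5 pairs passed with the replicate number as a block. RPL9 (0.68) and RPS10 (-0.64) had the next largest values. The RPL16 call was lost without CRCM 24 h replicate 2 or 3 or without any 24 h NRCM library, and 4 pairs passed without CRCM 24 h replicate 1. In log phase no pair was called, with a background of 0% in each comparison. The largest values there were -0.40 in RPS1 for CRCM against water, -0.48 in RPS9 for NRCM against water and 0.43 in RPS9 for CRCM against NRCM.

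In both comparisons of CRCM at 96 h the RPS9 pair carried the largest difference. The log2 ratio of A to B with CRCM differed by -1.15 from water (SE 0.24, adjusted p = 0.013) and by -1.63 from NRCM (SE 0.24, adjusted p = 0.0029). CRCM against water was called in 4 pairs, against 19.7% of the 61, with RPL15 (0.47) and RPL12 (0.22) higher and RPS7 (-0.39) lower besides RPS9. CRCM against NRCM was also called in 4 pairs (19.7%), with RPL15 (1.10), RPL18 (1.04) and RPL12 (0.29) higher. NRCM against water was called in 4 pairs (18%), with RPL15 (-0.63), RPL18 (-0.60) and RPS7 (-0.29) lower and RPL20 (0.32) higher.

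Single libraries moved these counts. CRCM replicate 3 had the lowest RPS9 A share of its group, and without it RPS9 still differed by -0.86 from water and -1.33 from NRCM. Against water 11 pairs then passed, and 7 did without CRCM replicate 1 and 2 without CRCM replicate 2 or water replicate 1 or 3. Against NRCM 8 pairs passed without CRCM replicate 3 and 7 without CRCM replicate 1. For NRCM against water none passed without NRCM replicate 2 or 3 or water replicate 1, 2 passed without water replicate 2 and 1 without water replicate 3.

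The change of the CRCM effect on the ratio between 24 h and 96 h passed in 4 pairs, against 11.5% of the 61. It was 1.67 in RPL18 (SE 0.31, adjusted p = 0.00057), 1.33 in RPL15 (SE 0.38, adjusted p = 0.024), -1.29 in RPL16 and 0.88 in RPL8. RPS9 (-1.38, adjusted p = 0.072) did not pass. Without CRCM 96 h replicate 3, RPL15 no longer passed (1.23, adjusted p = 0.055). For NRCM no pair passed (background 0%), and RPL9 had the largest value, -1.12.

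The other RP genes and the genes that act on them give the setting. All 78 other RP genes fell between log phase and 24 h in every supplement, with medians of -4.06 with CRCM, -3.70 with NRCM and -3.35 with water. Over all genes, 36.5%, 39.5% and 39.2% were called lower in the same order. Between 24 h and 96 h, 77 rose with CRCM, 50 with NRCM and 40 with water, against 22.4%, 28.8% and 27.1% of all genes. Relative to water, CRCM gave 2 higher and 10 lower calls among the 78 at 24 h, against 27.3% and 24.2% of all genes. At 96 h it gave 14 higher and 1 lower, against 19.6% and 21.8%. The shares called for CRCM against water at 24 h and at 96 h were below the all-gene shares. Those for the changes between times were above them.

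Of 11 regulators of RP genes, 5 were called higher and 3 lower for CRCM against water at 24 h, against 27.3% and 24.2% of all genes. The activators of RP transcription IFH1 (0.86), RAP1 (0.79), SFP1 (0.69) and FHL1 (0.65) and the kinase gene SCH9 (0.33) were higher, while the kinase genes YAK1 (-0.98), TOR1 (-0.32) and RIM15 (-0.31) were lower. The shift of all genes without scaling factors, given above for this comparison, exceeds the SCH9, TOR1 and RIM15 values in size. Their values without factors are not given here. In the same samples the median difference of the 59 RP genes was -0.72. At 96 h CRF1, a corepressor of RP genes, (0.78) and IFH1 (0.75) were higher and TOR1 (-0.61) and RIM15 (-0.50) were lower. IFH1 was highest in CRCM 96 h replicate 3, at 521.8 CPM against at most 326.1 in any other library, and without it the differences were 0.73 for CRF1, 0.44 for IFH1, -0.50 for TOR1 and -0.32 for RIM15, all still passing.

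Of 9 dedicated chaperones and assembly partners of RPs, all fell between log phase and 24 h with CRCM and with NRCM, and 8 did with water. The all-gene shares are those given above for the other RP genes. With CRCM against water at 24 h, 5 were higher, where 27.3% of all genes were. They included TSR2 (0.59) and BCP1 (0.53), partners of RPS26 and RPL23, and ACL4 (0.39), the partner of RPL4. YAR1 (-1.11), the partner of RPS3, was lower, where 24.2% of all genes were. For 10 translation elongation factors CRCM gave 7 lower calls relative to water at 24 h and no higher one, against 24.2% and 27.3% of all genes. At 96 h none passed. STM1 and LSO2, factors that bind idle ribosomes, fell between log phase and 24 h, with log2 changes of -3.10 for STM1 and -1.22 for LSO2 with water.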

How the data were processed

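The authors collected 3 biological replicates for each of 9 groups, sequenced poly(A) RNA and, per the labels, mapped reads to sacCer3. The submitters' processing notes name Bowtie2, bedtools, edgeR and DESeq2 without versions, and the counting step and strand setting are not given in the sources used here. The deposited table is described as raw counts, but each column sums to 1 to within rounding, so the deposited values are a signal, the share of the library's reads, given to 3 significant digits. The analysis plan assumed counts. Shares rescaled to CPM were therefore tested with limma, and a fold change is on the log2(CPM + 1) scale. No sample column was left unused (0 columns).

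Whole reads were recovered from the steps between low values in 20 libraries. In the other 7, which are deep, the step was fitted over more values and is less certain. Of the low values that could be tested (10.1% of all), 99.8% were whole to within 0.1 read (98.4% in the lowest library). edgeR and DESeq2 were run on these reads as alternatives.

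Genes at 1 CPM or more in at least 3 libraries were scaled by TMM factors and fitted with limma's trended moderation, with Benjamini-Hochberg adjustment over all genes tested and a threshold of 0.05. Supplements were compared within a time point (9 libraries). Times, and changes of a supplement effect between times, were fitted over all 27. Scaled CPM carry the TMM factors of the same fit. The ratio of A to B was fitted as log2((A + 1)/(B + 1)) in CPM over 61 pairs, which include the 26 pairs of the members. R 4.3.3, limma 3.58.1, edgeR 4.0.16 and DESeq2 1.42.0 were used. On simulated data 94% of genes halved at 24 h and 84% of genes doubled at 24 h were recovered (50 genes each among 6577), against 68% and 76% in log phase (50 each among 6483).

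The members and lists were chosen with earlier results of these data known. Values are given for the 7 genes without a paralog, the 3 highest and 3 lowest changes at 24 h and 96 h, the 3 highest and 3 lowest levels per kb, the 3 highest and 3 lowest A shares and the 3 largest ratio changes of each comparison. A few members that this rule takes in are not reported here. Other genes are named because they passed a test or were in a list, and were chosen after their values were seen. Same-numbered cultures were checked for shared deviations. Every pair's correlation was over 0.1 only for CRCM against NRCM in log phase (0.48, 0.59 and 0.75) and at 24 h (0.34, 0.23 and 0.23). The highest correlation between different numbers was 0.62 and 0.36 in these comparisons. For NRCM against water at 24 h the values were 0.20, 0.34 and 0.02, against at most 0.09 between different numbers.

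Alternatives were other size factors and no factors, other pseudocounts and filters, edgeR and DESeq2, all 27 or only the compared libraries, the replicate block and leaving out each library. Leaving out the 24 h libraries numbered 1 was chosen after seeing the data.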

Additional observations from a re-analysis of the deposited data

Results flagged for a closer look

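The effect of CRCM against water differed between 24 h and 96 h, by the test of that difference, for 18 of the 59 genes. The all-gene shares called are given above with the interaction term. The count depended on the scaling factors, and leaving out each library in turn gave counts from 7 to 46. The change was 1.88 in RPL16B, 1.73 in RPL2A and 1.71 in RPL2B on the log2 scale. For the ratio of A to B it was 1.33 in RPL15, -1.29 in RPL16, 1.67 in RPL18 and 0.88 in RPL8. RPL15 did not pass without CRCM 96 h replicate 3, the library with LEU2 and URA3 reads, and the part of that library in these values was not tested.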

How the results depend on the processing

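All 59 genes fell between log phase and 24 h in every supplement under every alternative run (59 to 59 called when each library was left out). Counts of genes called in other comparisons moved, and the cause was not tested. With the 24 h libraries numbered 1 left out, called genes numbered 55 for CRCM against water, 31 for NRCM against water and 43 for CRCM against NRCM at 24 h, 52 with NRCM and 44 with water for 96 h against 24 h, and 47 for the change of the CRCM effect and 1 for that of NRCM. Pairs then numbered 13, 8 and 6 in the same 24 h comparisons and 7 for the change of the CRCM effect. With all 27 libraries in 1 fit the counts were 30 for CRCM against water at 24 h, and 3, 0 and 7 for CRCM against water, NRCM against water and CRCM against NRCM at 96 h. Without scaling factors they were 4 for CRCM against water and 2 for CRCM against NRCM at 24 h, 9 for NRCM against water at 96 h (median -0.18), 50 with NRCM and 55 with water (median 1.27) for 96 h against 24 h, and 7 for the change of the CRCM effect, and RPL4B with water turned to 0.029, against -0.65. DESeq2 called 4 for NRCM against water at 96 h, and a fit of only the 6 libraries compared called 46 for 96 h against 24 h with water.

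With the replicate block, genes called at 24 h numbered 45 for CRCM against water, 1 for NRCM against water and 27 for CRCM against NRCM, and pairs 11, 4 and 5. Pairing of cultures by number was not established, as given above for CRCM against NRCM, so the block may not match the design. The summed share after TMM factors was 10.8% with CRCM and 11.4% with NRCM in log phase, 1.01% with water at 24 h, and 1.22% with NRCM and 1.28% with water at 96 h.

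Leaving out each library in turn, genes called ranged from 4 to 44 for CRCM against water, 0 to 3 for NRCM against water and 2 to 26 for CRCM against NRCM at 24 h, from 8 to 18, 1 to 1 and 12 to 24 at 96 h, from 52 to 57 with CRCM, 16 to 50 with NRCM and 14 to 26 with water for 96 h against 24 h, and from 7 to 46 for the change of the CRCM effect. Pairs ranged from 4 to 11, 0 to 1 and 0 to 4 at 24 h, from 2 to 11, 0 to 3 and 4 to 8 at 96 h, from 7 to 13 for 96 h against 24 h with CRCM, and from 3 to 6 for the change of the CRCM effect. Recovered depth limits the lowest genes. Reads shared by near-identical copies limit their A shares and keep calls of both copies from being independent.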
